A study of Homo sapiens with 12 samples.

Results

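Genes that the tumour suppressor p53 switches on were examined in OCI-Ly7, an established cell line from a diffuse large B-cell lymphoma, after 24 hours with inhibitors of Btk. Btk is a kinase that works just below the B-cell receptor and relays its signal. The 4 groups were 1 μM PLS-123, 10 μM ibrutinib, 1 μM ibrutinib and vehicle, with 3 arrays each and 12 in all. Ibrutinib and PLS-123 both bind Btk irreversibly. The genes were MDM2, TP53INP1, ZMAT3, BTG2, PHLDA3, RRM2B, XPC, DDB2, FDXR and BBC3, 10 well-known p53 targets chosen by name. They and the wider lists below were chosen with earlier results of these data known. A gene was read from the Affymetrix probe sets (groups of short probes for a stretch of its transcript) whose annotation gives its symbol and no other. By this rule 7 of the 10 genes were measured, with 23 probe sets among the 54613 tested, and 19775 genes in all had such a probe set. BTG2, FDXR and BBC3 were not analysed here. The sources used here do not state the p53 status of the line.

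p53 is a transcription factor that is kept low in resting cells, because MDM2 marks it for destruction. Damage to DNA and other stresses free it from MDM2, and it then switches on genes for cell cycle arrest, DNA repair, cell death and its own restraint. In B cells of the germinal centre, from which many of these lymphomas arise, BCL6 holds this response down. Messenger RNA of p53 targets is often read as a sign of p53 activity, although other transcription factors also act on many of the same genes.

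p53 binds a pair of similar stretches of DNA, each 10 bases long, that may be set apart by a short spacer. The windows around the RefSeq start sites (GRCh38.p14, 250 bases before to 50 after each start) were searched for the p53 consensus with up to 2 mismatches in all and a spacer of up to 13 bases. Such a match was present in 1030 of the 35116 windows of all genes (2.93%). For 7 of the 10 genes windows are reported here, 13 in all, and 4 of these held a match. The 4 belong to 3 genes, MDM2, DDB2 and FDXR, and those of MDM2 are the same stretch in overlapping windows. Windows of ZMAT3, XPC, BBC3 and BTG2 held none, which says only that these letters are not in those windows. Results for TP53INP1, PHLDA3 and RRM2B are not reported here, so nothing is said of matches near them. The 2 windows below are shown because MDM2 and DDB2 are measured on the arrays, with the match in capitals. The MDM2 window is chr12:68808767-68809066 on the plus strand. Its match starts at position -94 from the start site and has no spacer and 2 mismatches. The DDB2 window is chr11:47214724-47215023 on the plus strand. Its match starts at base 6 of the transcript and has a spacer of 1 base and 0 mismatches.
MDM2: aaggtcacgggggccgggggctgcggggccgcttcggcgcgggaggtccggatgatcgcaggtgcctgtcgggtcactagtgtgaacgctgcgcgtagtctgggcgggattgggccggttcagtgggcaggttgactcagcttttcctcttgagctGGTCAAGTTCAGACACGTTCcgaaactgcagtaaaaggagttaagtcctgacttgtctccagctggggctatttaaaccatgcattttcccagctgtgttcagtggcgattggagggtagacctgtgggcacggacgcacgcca
DDB2: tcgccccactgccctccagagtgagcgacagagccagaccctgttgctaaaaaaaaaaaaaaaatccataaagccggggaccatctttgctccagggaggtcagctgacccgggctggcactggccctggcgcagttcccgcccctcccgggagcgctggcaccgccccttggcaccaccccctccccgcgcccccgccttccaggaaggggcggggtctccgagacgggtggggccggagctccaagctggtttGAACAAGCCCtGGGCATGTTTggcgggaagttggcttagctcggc

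The array values were normalized by the authors with RMA and are given below as log2 intensity, so a difference of 1 is a doubling of the signal. Statements about a gene rest on its brightest probe set. A probe set is called dim where its mean lies under 3.87, the median of all probe sets. Differences were tested with limma, and adjusted p means the Benjamini-Hochberg adjustment over all 54613 probe sets of a comparison, with a threshold of 0.05. Intervals are 95% confidence intervals of the log2 difference. Whether a group's 3 samples came from separate cultures is not stated in the labels, so the p-values measure the spread between these samples, which may be technical. All 6 measured B-cell markers lay at a mean log2 intensity of 9.06 to 12.10, whereas the 4 T-cell markers lay at 2.28 to 4.17 and the 3 myeloid markers at 3.03 to 4.33. The 4 epithelial and stromal markers lay at 1.67 to 6.28. Above the median were 2 of these, 1 of the T-cell markers and 2 of the myeloid markers. RNA quality was read from the ACTB control probe sets, whose 3' minus 5' log2 difference grows as transcripts are shortened. It was 2.93 ± 0.20 (SD, n = 3 arrays) with PLS-123, 2.74 ± 0.08 with 10 μM ibrutinib, 2.67 ± 0.18 with the lower dose of ibrutinib and 2.64 ± 0.04 with vehicle. The same difference for the GAPDH control probe sets was 0.44 to 0.47 over the PLS-123 arrays, 0.38 to 0.40 over those of 10 μM ibrutinib, 0.24 to 0.31 over those of 1 μM ibrutinib and 0.27 to 0.35 over those of vehicle. It was thus higher on all 6 arrays of PLS-123 and 10 μM ibrutinib than on the other 6, as TP53INP1 is below, and its part in the results was not tested.

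Of the 7 measured genes, 1 was higher and 2 were lower with PLS-123 than with vehicle, whereas with 10 μM ibrutinib 1 was higher and none lower. The gene that rose was TP53INP1 in both cases, by about 6-fold. With PLS-123, ZMAT3 and XPC fell by less. The other 4 genes, MDM2 among them, did not pass the test against vehicle with either treatment. For comparison, 7.54% of all genes were called higher and 12.8% lower with PLS-123 than with vehicle (20.4% either way), and 6.71% were called higher with 10 μM ibrutinib (12.5% either way). The brightest probe sets of the 7 genes are not dim, and genes that are not dim are called more often. Of all such genes 31% were called either way with PLS-123 and 19.5% with 10 μM ibrutinib. The median log2 difference of the 7 genes was -0.10 with PLS-123 and 0.03 with 10 μM ibrutinib, beside medians of -0.04 and -0.02 over all genes. These comparisons share the vehicle arrays.

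**Figure D1:**
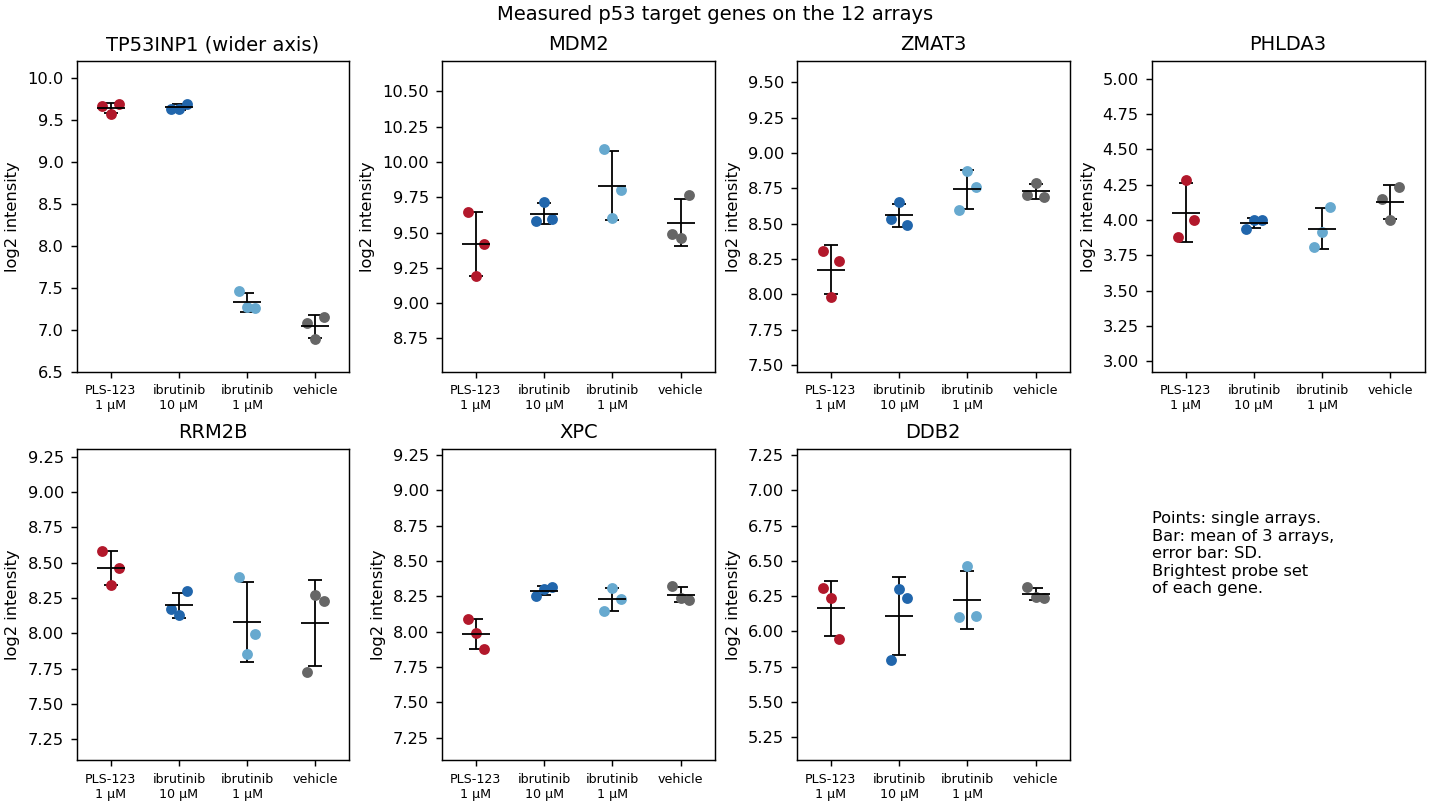
Log2 intensity (vertical axis) of the brightest probe set of the 7 measured p53 target genes on each of the 12 arrays, by treatment (horizontal axis). Points are arrays, bars are group means and error bars are SDs of 3 arrays. TP53INP1 lies at 9.57 to 9.69 on the 6 arrays of PLS-123 and 10 μM ibrutinib, against 6.89 to 7.46 on the other 6, whereas the values of MDM2, PHLDA3 and DDB2 overlap between every treatment and vehicle.

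TP53INP1 encodes a stress-induced protein of the nucleus and of autophagic vesicles that aids p53 in driving cell death. Its brightest probe set had log2 intensities of 9.67, 9.57 and 9.68 under PLS-123, 9.63, 9.63 and 9.69 under 10 μM ibrutinib, 7.46, 7.27 and 7.26 under 1 μM ibrutinib, and 7.09, 6.89 and 7.16 under vehicle. The 6 arrays of PLS-123 and 10 μM ibrutinib lay together, more than 2 log2 units above the other 6, and the 3 arrays of 1 μM ibrutinib lay just above the 3 of vehicle. In bulk RNA a rise in every cell and a larger share of cells that express a gene cannot be told apart. TP53INP1 was 2.60 ± 0.09 (SE) higher with PLS-123 than with vehicle, which is 6.05-fold (interval 2.40 to 2.79, limma adjusted p = 4.68e-10). With 10 μM ibrutinib it was 2.61 ± 0.09 higher than with vehicle, which is 6.10-fold (adjusted p = 5.37e-10). Among the 19775 genes ordered by their difference from vehicle, it stood 22 from the top with PLS-123 and 23 from the top with 10 μM ibrutinib.

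At the lower dose of ibrutinib the gene was 0.29 ± 0.09 above vehicle (interval 0.09 to 0.48). This did not pass the test (unadjusted p = 0.00729, limma adjusted p = 0.908). The groups did not overlap, which can happen by chance with 3 arrays against 3. The share of all probe sets whose groups do not overlap is not reported here. Set against 1 μM ibrutinib, TP53INP1 was 2.31 higher with the same dose of PLS-123 (4.96-fold, adjusted p = 2.10e-09) and 2.32 higher with 10 μM ibrutinib (adjusted p = 2.06e-09). The doses of PLS-123 and of the higher ibrutinib arm differ, and between them the gene differed by -0.01 (interval -0.21 to 0.19). Of its other 2 probe sets, both dim, 1 was also higher with PLS-123, where 6.36% of all probe sets were called higher. That one had 3.68, 4.13 and 3.93 under PLS-123 and 3.30, 3.14 and 3.32 under vehicle, a difference of 0.66 ± 0.18 (adjusted p = 0.0246). It differed by 0.29 with 10 μM ibrutinib, which did not pass, and the dimmest probe set differed by 0.02 with PLS-123. With the median over the 3 probe sets in place of the brightest, the call with 10 μM ibrutinib was lost (adjusted p = 0.386). Both calls against 1 μM ibrutinib were lost as well, at 0.55 for PLS-123 (adjusted p = 0.0535) and 0.18 for the higher dose (adjusted p = 0.683), while PLS-123 against vehicle kept its call at 0.66 (adjusted p = 0.0186).

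**Figure D2:**
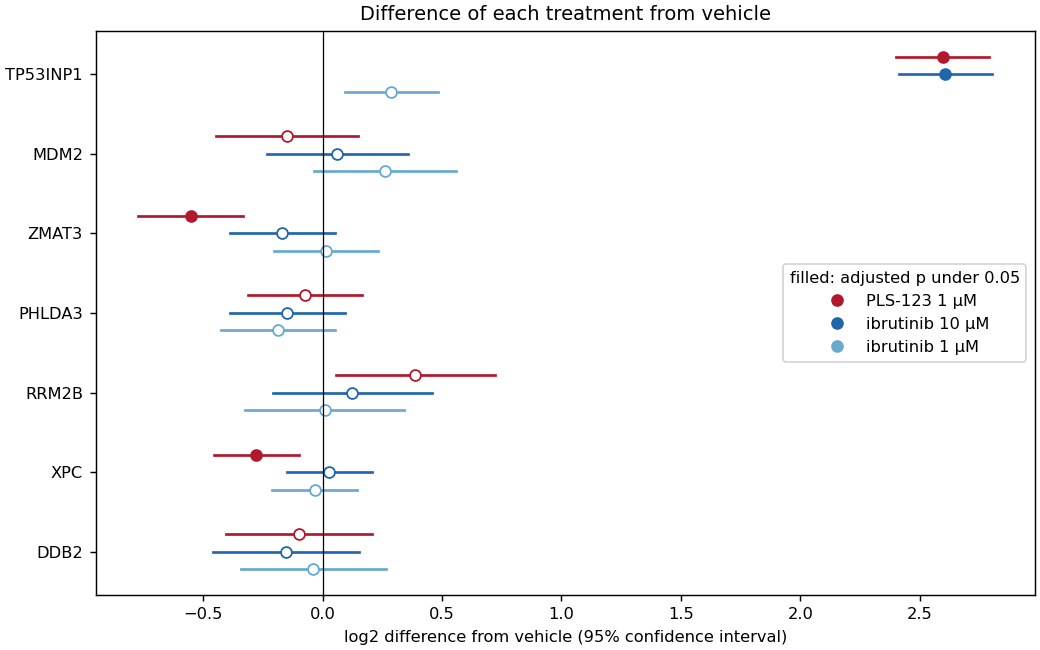
Log2 difference from vehicle (horizontal axis) of the 7 measured genes (rows) for each treatment, with the 95% confidence interval as a bar. Filled points have a limma adjusted p under 0.05. Those are TP53INP1 at 2.60 with PLS-123 and at 2.61 with the higher dose of ibrutinib, and ZMAT3 and XPC at -0.55 and -0.28 with PLS-123.

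MDM2 encodes the ubiquitin ligase that brings p53 down and is itself a p53 target, which closes a feedback loop. The window printed above holds a p53 consensus match. Its brightest probe set had log2 intensities of 9.65, 9.19 and 9.42 under PLS-123, 9.58, 9.72 and 9.60 under 10 μM ibrutinib, 10.09, 9.60 and 9.80 under 1 μM ibrutinib, and 9.49, 9.46 and 9.76 under vehicle. Each treatment overlapped vehicle. The difference from vehicle was -0.15 ± 0.14 with PLS-123 (interval -0.45 to 0.15, limma adjusted p = 0.526) and 0.06 ± 0.14 with 10 μM ibrutinib (interval -0.24 to 0.36, adjusted p = 0.863). It was 0.26 ± 0.14 with 1 μM ibrutinib (interval -0.04 to 0.56, adjusted p = 0.920). At the shared dose of 1 μM, MDM2 differed by -0.41 ± 0.14 between PLS-123 and ibrutinib, which did not pass (interval -0.71 to -0.12, adjusted p = 0.0704).

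MDM2 has the most probe sets of the 7 genes, and of its 10 none rose with PLS-123 and 2 fell, where 10.4% of all probe sets were called lower. The larger fall was in a probe set with 4.30, 4.50 and 4.28 under PLS-123 and 5.02, 4.65 and 5.04 under vehicle. These groups did not overlap, and the difference was -0.54 (limma adjusted p = 0.00442). The other was dim and differed by -0.35 (adjusted p = 0.0484). Both were also lower than with 1 μM ibrutinib, where 7.93% of all probe sets were called lower (adjusted p = 0.0398 and 0.0285). None of the 10 passed the test against vehicle with 10 μM ibrutinib, where 10% of all probe sets were called and these 10 ranged from -0.26 to 0.47. Nor did any with 1 μM ibrutinib, where 0% were called and the range was -0.23 to 0.26. In the names of the array's probe sets an x marks probes that can also match other transcripts, and the brightest probe set and the one with the larger fall both carry it.

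**Figure D3:**
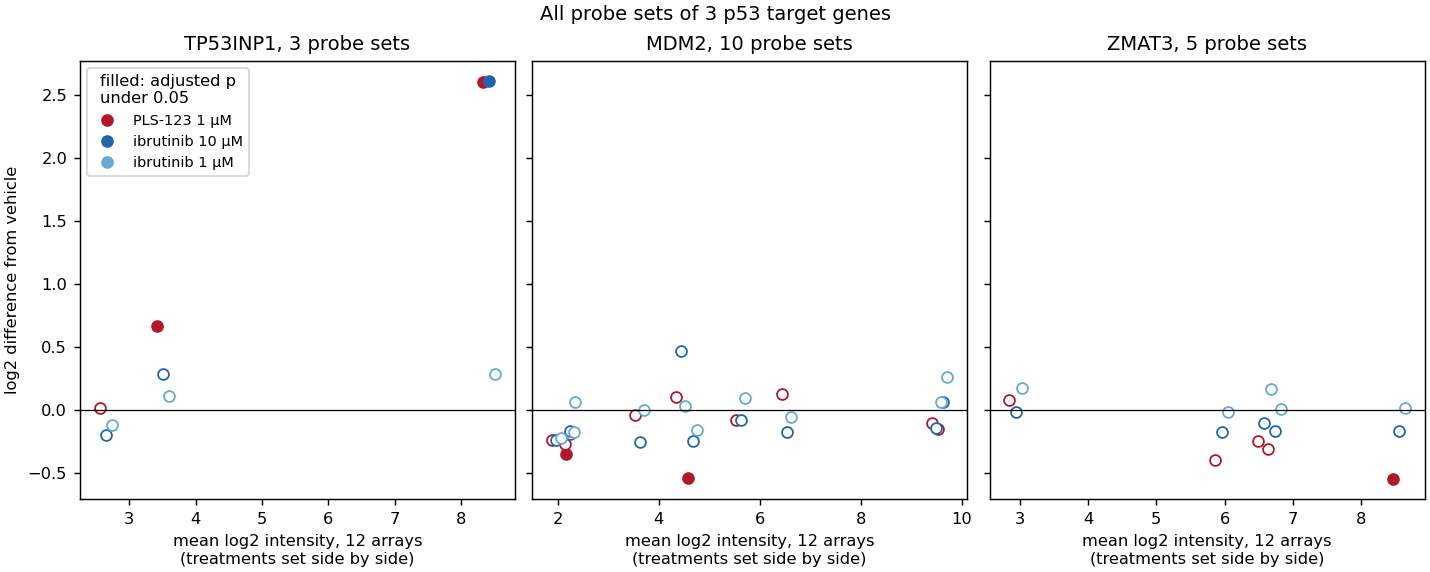
Log2 difference from vehicle (vertical axis) against mean log2 intensity over the 12 arrays (horizontal axis) for every probe set of TP53INP1 (3), MDM2 (10) and ZMAT3 (5), with the treatments set side by side. Filled points have a limma adjusted p under 0.05. The brightest probe set of TP53INP1 stands at 2.60 and 2.61, whereas the 10 probe sets of MDM2 lie between -0.54 and 0.47.

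ZMAT3 encodes a zinc finger protein that binds RNA and acts on the stability and splicing of other messages. Its brightest probe set had log2 intensities of 8.31, 7.98 and 8.24 under PLS-123, 8.53, 8.65 and 8.49 under 10 μM ibrutinib, 8.60, 8.87 and 8.76 under 1 μM ibrutinib, and 8.70, 8.79 and 8.69 under vehicle. The PLS-123 arrays lay below all 9 others. The difference from vehicle was -0.55 ± 0.10 with PLS-123, a 1.47-fold fall (interval -0.77 to -0.33, limma adjusted p = 0.00187). With 10 μM ibrutinib, whose arrays also lay below vehicle, it was -0.17 ± 0.10 and did not pass (adjusted p = 0.384). With 1 μM ibrutinib it was 0.01. ZMAT3 was also lower with PLS-123 than with the same dose of ibrutinib, by a log2 difference of -0.57 (adjusted p = 0.00202). Against the unlike dose of 10 μM ibrutinib the difference was -0.38 (adjusted p = 0.121).

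The other 4 probe sets of ZMAT3 did not pass the test against vehicle, and their log2 differences with PLS-123 were -0.32, -0.25, -0.40 and, for the dim one, 0.08. One of them passed against 1 μM ibrutinib (-0.42, limma adjusted p = 0.0359). The fall of ZMAT3 with PLS-123 was not called with the methods' t-test after Benjamini-Hochberg adjustment (adjusted p = 0.0579), with the median over its probe sets (-0.25, adjusted p = 0.142) or after adding the ACTB difference to the fit (-0.49, adjusted p = 0.0565).

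RRM2B, XPC and DDB2 serve DNA repair. RRM2B is a small subunit of ribonucleotide reductase that supplies building blocks of DNA outside S phase. XPC finds distorted DNA at the start of nucleotide excision repair, and DDB2 binds damage from ultraviolet light and hands it on to XPC. Each was read by 1 probe set. XPC had log2 intensities of 8.09, 7.99 and 7.88 under PLS-123, 8.26, 8.30 and 8.32 under 10 μM ibrutinib, 8.14, 8.31 and 8.23 under 1 μM ibrutinib, and 8.33, 8.24 and 8.22 under vehicle. The 3 PLS-123 arrays lay below all 9 others, by a small margin. The difference from vehicle was -0.28 ± 0.08 with PLS-123, a 1.21-fold fall (interval -0.45 to -0.10, limma adjusted p = 0.0332), and 0.03 ± 0.08 with 10 μM ibrutinib. The call with PLS-123 was lost in 11 of the 22 alternatives, and after adding the ACTB difference to the fit the value was -0.17 (adjusted p = 0.423). Against 1 μM ibrutinib XPC differed by -0.24 with PLS-123, which did not pass (adjusted p = 0.0728).

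RRM2B had log2 intensities of 8.58, 8.34 and 8.46 under PLS-123, 8.17, 8.13 and 8.30 under 10 μM ibrutinib, 8.40, 7.85 and 7.99 under 1 μM ibrutinib, and 7.72, 8.27 and 8.23 under vehicle. The PLS-123 arrays lay above those of vehicle, where 1 array was well below the others. The difference of 0.39 ± 0.15 (interval 0.05 to 0.72) did not pass (limma adjusted p = 0.110), and with 10 μM ibrutinib it was 0.12. Without that low array of vehicle (array A) the PLS-123 difference was 0.21 (adjusted p = 0.377), whereas limma with an intensity trend called it (0.39, adjusted p = 0.0388). DDB2, whose window holds the p53 consensus match with 0 mismatches, had 6.31, 6.24 and 5.94 under PLS-123, 5.79, 6.30 and 6.24 under 10 μM ibrutinib, 6.10, 6.46 and 6.11 under 1 μM ibrutinib, and 6.31, 6.24 and 6.24 under vehicle. The groups overlapped. DDB2 differed from vehicle by -0.10 with PLS-123 (interval -0.41 to 0.20) and by -0.15 with 10 μM ibrutinib (interval -0.46 to 0.15), neither of which passed.

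PHLDA3 encodes a small protein that competes with AKT for lipids of the cell membrane and so restrains AKT, a kinase of survival signalling. Its brighter probe set lay just above the median of all probe sets, with a mean log2 intensity of 4.05 ± 0.21 with PLS-123 (SD, n = 3 arrays), 3.98 ± 0.04 with 10 μM ibrutinib, 3.94 ± 0.14 with the lower dose of ibrutinib and 4.13 ± 0.12 with vehicle. The 4 groups overlapped. The differences from vehicle were -0.07 with PLS-123 (interval -0.31 to 0.16), -0.15 with 10 μM ibrutinib (interval -0.39 to 0.09) and -0.19 with 1 μM ibrutinib (interval -0.43 to 0.05), and none passed the test.

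Between the compounds at the shared dose of 1 μM, 1 of the 7 genes was higher with PLS-123 than with ibrutinib and 1 was lower, where 5.78% of all genes were called higher and 10.1% lower. These were TP53INP1 and ZMAT3, with the values given above. Between the doses of ibrutinib, TP53INP1 alone was called, higher at 10 μM, where 9.72% of all genes were called in either direction. With 1 μM ibrutinib against vehicle limma called 0 of the 7 genes and 0% of all genes. At an unadjusted p under 0.05 there was 1 of the 7 by limma, TP53INP1, and there were 0 by the methods' t-test. By limma 2943 of all 54613 probe sets had such a p in this comparison. Between PLS-123 and the unlike dose of 10 μM ibrutinib limma called 0 of the 7 genes, where 0.212% of all genes were called. At an unadjusted p under 0.05 there were 2 by limma, ZMAT3 and XPC, and 3 by the methods' t-test, these and RRM2B. By limma 8333 of all 54613 probe sets had such a p here. The study's filter joined a 1.5-fold change with p under 0.05, and the paper does not say whether that p was adjusted. With both cuts on the unadjusted p, the methods' t-test gave 0 of the 7 in either comparison. After Benjamini-Hochberg adjustment the methods' t-test called 0 of the 7 in either comparison.

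Proteins that act on p53 were read from a list of 17 regulators, of which 15 were measured. With PLS-123, 2 rose and 2 fell (26.7% called, against 20.4% of all genes), and with 10 μM ibrutinib, 2 rose and 1 fell (20%, against 12.5%). None of the 15 is dim, and of all genes that are not dim 31% and 19.5% were called, so these shares are near those of other genes. USP7, which removes ubiquitin from both p53 and MDM2, rose by 0.50 ± 0.09 with PLS-123 (limma adjusted p = 0.00135) and by 0.64 ± 0.09 with 10 μM ibrutinib (adjusted p = 0.000227). ATM, the kinase that marks p53 after breaks in DNA, was higher by 0.61 ± 0.13 with PLS-123 (adjusted p = 0.00427) and by 0.58 ± 0.13 with 10 μM ibrutinib (adjusted p = 0.00872). After adding the ACTB difference to the fit, the rise of ATM with PLS-123 was not called (0.47, adjusted p = 0.136). DAXX, a partner of MDM2 and USP7 in the nucleus, fell by 0.55 with PLS-123 and by 0.40 with 10 μM ibrutinib. COP1, another ubiquitin ligase of p53, fell by 0.35 with PLS-123 (-0.36 with the ACTB difference in the fit, adjusted p = 0.0773) and differed by -0.03 with 10 μM ibrutinib. MDM4, the relative of MDM2 that blocks p53 without destroying it, had log2 intensities of 10.40, 10.25 and 10.45 under PLS-123, 10.43, 10.50 and 10.58 under 10 μM ibrutinib, and 10.30, 10.04 and 10.25 under vehicle. Its differences of 0.17 (adjusted p = 0.282) and 0.31 (adjusted p = 0.0692) did not pass, although with quantile normalization that with 10 μM ibrutinib did (0.33, adjusted p = 0.0466).

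A wider list of 60 further p53 targets, 58 of them measured, held calls in both directions. With PLS-123, 10 rose and 10 fell (34.5% called, against 20.4% of all genes), and with 10 μM ibrutinib, 7 rose and 5 fell (20.7%, against 12.5%). Genes that are not dim are called more often, and among those alone the shares were 41.7% of 48 targets with PLS-123 against 31% of all such genes, and 25% with 10 μM ibrutinib against 19.5%. The median log2 difference over the 58 was 0.01 with PLS-123 and 0.00 with 10 μM ibrutinib. After adding the ACTB difference to the fit, 5 rose and 3 fell with PLS-123. The share of all genes called in that fit is not reported here. Among the genes named below, 10 calls with PLS-123 did not pass in that fit. For 7 of them the difference moved by less than 1.5 times, to -0.41 for PLK3, -0.38 for SFN, -0.28 for FBXW7, -0.46 for BAX, 0.49 for PANK1, 0.32 for POLK and 0.30 for TRIM22 (adjusted p of 0.0645 to 0.373). For the other 3 it shrank by more, to -0.20 for FBXO22, 0.56 for IKBIP and 0.18 for ANKRA2 (adjusted p of 0.315 to 0.665). With 10 μM ibrutinib POLH stayed at -0.27 and just missed the threshold (adjusted p = 0.0549). With quantile normalization FBXW7 (-0.27, adjusted p = 0.0558) and FBXO22 (-0.24, adjusted p = 0.0592) did not pass with PLS-123. With 1 μM ibrutinib limma called 0 of the 58, with 5 at an unadjusted p under 0.05. Of all 54613 probe sets, 2943 had such a p by limma. By the methods' t-test 5 of the 58 also had p under 0.05 before and 0 after Benjamini-Hochberg adjustment.

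**Figure D4:**
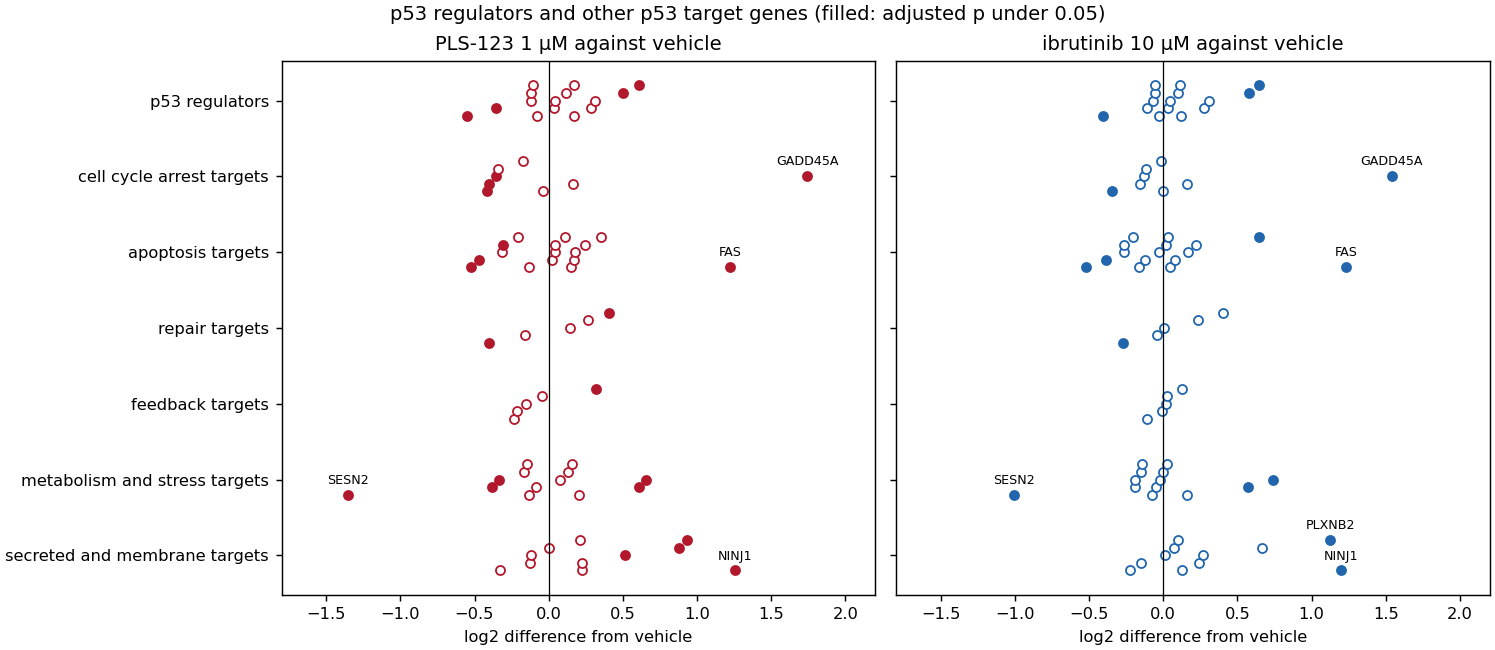
Log2 difference from vehicle (horizontal axes) of the p53 regulators and of the other p53 target genes by role (rows), for PLS-123 and 10 μM ibrutinib. Filled points have a limma adjusted p under 0.05. The calls stand on both sides of 0, with GADD45A at 1.74 and SESN2 at -1.35 with PLS-123.

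Among genes of cell cycle arrest, CDKN1A, the inhibitor of cyclin-dependent kinases that is the best-known p53 target, had log2 intensities of 5.04, 5.23 and 5.47 under PLS-123, 5.40, 5.08 and 5.33 under 10 μM ibrutinib, and 5.33, 5.20 and 5.33 under vehicle. The groups overlapped, and the differences were -0.04 (interval -0.29 to 0.21) and -0.02 (interval -0.27 to 0.24). Of the 8 genes of this group 1 rose and 3 fell with PLS-123 (50% called, against 20.4% of all genes), and 1 rose and 1 fell with 10 μM ibrutinib (25%, against 12.5%). Only 1 of the 8 is dim, and of all genes that are not dim 31% and 19.5% were called. GADD45A, a stress sensor that slows entry into mitosis, rose by 1.74 with PLS-123 and by 1.54 with 10 μM ibrutinib. SFN, an adaptor protein that holds back mitosis, fell by 0.42 and by 0.34. PLK3, a stress-activated kinase, fell by 0.41 with PLS-123 and FBXW7, which marks cyclin E for destruction, fell by 0.35, and neither passed with 10 μM ibrutinib (-0.12 and -0.16).

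Of the 16 genes of apoptosis, 1 rose and 3 fell with PLS-123 (25% called, against 20.4% of all genes), and 2 rose and 2 fell with 10 μM ibrutinib (25%, against 12.5%). Of the 16, 4 are dim, and of all genes that are not dim 31% and 19.5% were called. FAS, a death receptor of the cell surface, had log2 intensities of 7.38, 7.24 and 7.26 under PLS-123, 7.27, 7.34 and 7.31 under 10 μM ibrutinib, 6.45, 6.35 and 6.37 under 1 μM ibrutinib, and 6.02, 6.11 and 6.09 under vehicle. All 3 treatments lay above vehicle without overlap. The rise of FAS was 1.22 ± 0.08 with PLS-123 (limma adjusted p = 1.12e-07) and 1.23 ± 0.08 with 10 μM ibrutinib (adjusted p = 1.18e-07). With 1 μM ibrutinib the difference of 0.32 did not pass (adjusted p = 0.778). BAX, which opens the outer membrane of mitochondria during cell death, went the other way. It had 7.07, 7.07 and 7.03 under PLS-123, 6.86, 7.07 and 7.25 under 10 μM ibrutinib, and 7.49, 7.74 and 7.51 under vehicle. BAX fell by 0.52 with PLS-123 (adjusted p = 0.00443) and by 0.52 with 10 μM ibrutinib (adjusted p = 0.00648), and after adding the ACTB difference to the fit its fall with PLS-123 was not called (-0.46, adjusted p = 0.104). These values are of messenger RNA. For BAX protein the paper reports a rise with PLS-123, from Western blots of OCI-Ly7 and SU-DHL-2 cells. BID, which carries the death receptor signal to mitochondria, fell by 0.47 and by 0.39. The decoy receptor TNFRSF10D rose by 0.65 with 10 μM ibrutinib and differed by 0.15 with PLS-123, which did not pass.

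Of 13 genes of metabolism, oxidative stress and autophagy, 2 rose and 3 fell with PLS-123 (38.5% called, against 20.4% of all genes), and 2 rose and 1 fell with 10 μM ibrutinib (23.1%, against 12.5%). Of the 13, 3 are dim. Most genes of the groups in this paragraph are not dim, and of all genes that are not dim 31% and 19.5% were called. SESN2, a sensor of amino acids that restrains mTORC1, fell by 1.35 with PLS-123 and by 1.01 with 10 μM ibrutinib. GPX1, which breaks down hydrogen peroxide, rose by 0.65 and by 0.74, and PANK1, which starts the synthesis of coenzyme A, rose by 0.61 and by 0.57. FBXO22, part of a ubiquitin ligase, fell by 0.33 with PLS-123 and differed by -0.15 with 10 μM ibrutinib. Of 11 genes of secreted and membrane proteins, 4 rose and none fell with PLS-123 (36.4% called), and 2 rose and none fell with 10 μM ibrutinib (18.2%). NINJ1, which ruptures the plasma membrane of dying cells, had log2 intensities of 6.87, 6.89 and 6.69 under PLS-123, 6.77, 6.78 and 6.72 under 10 μM ibrutinib, 5.61, 5.78 and 5.67 under 1 μM ibrutinib, and 5.61, 5.51 and 5.56 under vehicle. The 6 arrays of PLS-123 and 10 μM ibrutinib lay above the other 6. NINJ1 rose by 1.26 ± 0.08 with PLS-123 (limma adjusted p = 1.99e-07) and by 1.20 ± 0.08 with 10 μM ibrutinib (adjusted p = 3.69e-07). PLXNB2, a receptor for semaphorins, rose by 0.88 and by 1.13. IKBIP rose by 0.93 and ANKRA2 by 0.52 with PLS-123, and neither passed with 10 μM ibrutinib (0.67 and 0.24). Among 5 genes of repair and damage tolerance, 2 were called with PLS-123 (40%) and 1 with 10 μM ibrutinib (20%). The polymerase POLH fell by 0.40 with PLS-123 and by 0.27 with 10 μM ibrutinib, and POLK rose by 0.41 with PLS-123 (0.40 with 10 μM ibrutinib, which did not pass). Of 5 genes that feed back on p53, only TRIM22 was called (20%), higher by 0.32 with PLS-123. It differed by 0.03 with 10 μM ibrutinib, which did not pass.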

How the data were processed

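The authors labelled RNA of 12 OCI-Ly7 samples, hybridized each to an Affymetrix U133 Plus 2.0 array and deposited RMA intensity values on the linear scale. The version of RMA and other settings are not given in the sources used here. Log2 was taken of the deposited intensities, with nothing added. Of 54675 probe sets, 62 controls were set aside. The platform annotation gave 41091 of the rest 1 gene symbol, 1801 several and 11721 none. limma 3.58.1 (R 4.3.3) fitted a mean for each of the 4 groups to all arrays, with 8 residual degrees of freedom and two-sided tests. With 3 arrays in each group the precision is limited, and arrays carry no read depth. The genes and the wider lists were chosen with earlier results of these data known. Named from the wider lists were MDM4 and CDKN1A, and up to 4 genes of each list with the smallest adjusted p among those called with PLS-123 or 10 μM ibrutinib against vehicle. Alternatives were 10 other settings (the methods' t-test, 2 groups alone, an intensity trend, a replicate block, quantile normalization, centring on 100 normalization controls, no dim probe sets, only the brightest probe set of a gene, a gene's median over its probe sets, the ACTB covariate) and leaving out each of the 12 arrays. Their use on the wider lists was chosen after seeing the data. The fit was tested on simulated data. Residuals of arrays with the same letter correlated between -0.21 and 0.15. Whether the letters mark a pairing cannot be told from this, since arrays of unlike letter were not set beside them.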

Additional observations from a re-analysis of the deposited data

How the results depend on the processing

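Over 7 genes, 6 comparisons and 22 alternatives, 856 of 924 values kept their direction and their side of the threshold, 15 passed the threshold only under the alternative and 18 no longer passed it. The other 35 changed sign, and 0 of them was called under the alternative. For PLS-123 against vehicle, 3 genes were called, 4 with an intensity trend (RRM2B added), and 1 (TP53INP1) with the ACTB covariate or the methods' t-test after Benjamini-Hochberg adjustment (3 at an unadjusted p under 0.05), and leaving out 1 array gave 2 to 3. XPC was lost without any 1 of the vehicle arrays, without PLS-123 array B or C, and with 6 other settings (adjusted p of 0.0521 to 0.423 over all of these). The replicate block left 2 called against vehicle with PLS-123, where XPC was at 0.0521, and changed no other call of the 7 genes. For 10 μM ibrutinib against vehicle or against 1 μM ibrutinib, the median over the probe sets of a gene called 0, since the median for TP53INP1 is that of a dim probe set (0.29, adjusted p = 0.386, against vehicle). For PLS-123 against 1 μM ibrutinib, 2 genes were called, 1 with the methods' t-test (3 before adjustment), 4 with an intensity trend, 4 without dim probe sets, and 2 to 4 when an array was left out (4 without array A of 1 μM ibrutinib). The median over probe sets also called 2 there, but lost TP53INP1 (0.55, adjusted p = 0.0535) and called ZMAT3 and XPC, both lower. For PLS-123 against 10 μM ibrutinib, 0 were called, and 2 with an intensity trend or without dim probe sets, ZMAT3 and XPC, both lower with PLS-123. Of the wider list, 20 of 58 were called with PLS-123 against vehicle and 8 with the ACTB covariate. Against 1 μM ibrutinib, 16 of the 58 were called, 8 with the methods' t-test and 9 with the ACTB covariate. Further scaling moved the share of lower calls over all probe sets from 62% to 52.4% (quantile) or 53.7% (controls) for PLS-123 against vehicle. That share was 63.4%, 53% and 51.2% against 1 μM ibrutinib, and 72%, 55.6% and 68.2% against 10 μM ibrutinib. With quantile normalization 13 of the wider list rose and 8 fell with PLS-123. The causes were not tested, beyond what these settings leave out by construction.

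The values that changed sign without a call were these. With the ACTB covariate the log2 difference was 0.014 for PHLDA3 in PLS-123 against vehicle, 0.072 for DDB2 in PLS-123 against vehicle, -0.0085 for RRM2B in 1 μM ibrutinib against vehicle and 0.094 for DDB2 in PLS-123 against 1 μM ibrutinib. With a gene's median over its probe sets the log2 difference was -0.067 for MDM2 in 1 μM ibrutinib against vehicle, -0.0096 for PHLDA3 in PLS-123 against 1 μM ibrutinib, 0.18 for MDM2 in 10 μM ibrutinib against 1 μM ibrutinib, 0.38 for TP53INP1 in PLS-123 against 10 μM ibrutinib and -0.030 for PHLDA3 in PLS-123 against 10 μM ibrutinib. With centring on controls the log2 difference was -0.0012 for ZMAT3 and -0.0074 for RRM2B in 1 μM ibrutinib against vehicle. For TP53INP1 in PLS-123 against 10 μM ibrutinib it was 0.0021 with centring and 0.049 with quantile normalization. With an array left out, PHLDA3 ranged from -0.19 to 0.013 in PLS-123 against vehicle, -0.0007 to 0.20 in PLS-123 against 1 μM ibrutinib, -0.023 to 0.12 in 10 μM ibrutinib against 1 μM ibrutinib and -0.041 to 0.16 in PLS-123 against 10 μM ibrutinib. With an array left out, DDB2 ranged from -0.17 to 0.0084 in PLS-123 against vehicle, -0.25 to 0.0053 in 10 μM ibrutinib against vehicle, -0.16 to 0.023 in 1 μM ibrutinib against vehicle, -0.13 to 0.056 in PLS-123 against 1 μM ibrutinib, -0.21 to 0.044 in 10 μM ibrutinib against 1 μM ibrutinib and -0.11 to 0.16 in PLS-123 against 10 μM ibrutinib. With an array left out, RRM2B ranged from -0.051 to 0.22 in 10 μM ibrutinib against vehicle. In 1 μM ibrutinib against vehicle RRM2B then ranged from -0.17 to 0.12, ZMAT3 from -0.050 to 0.086 and XPC from -0.074 to 0.0084. With an array left out, TP53INP1 ranged from -0.032 to 0.025 in PLS-123 against 10 μM ibrutinib.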
